A study of Saccharomyces cerevisiae with 6 samples.

Results

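The transcripts of the RNA polymerase I and III machinery of budding yeast were followed through 35 genes, out of 5449 genes represented on the arrays. The members were taken by name: 7 subunits found only in RNA polymerase I (Pol I), 10 found only in RNA polymerase III (Pol III), 7 shared subunits, 8 Pol I initiation factors, the TFIIIB factors Brf1 and Bdp1, and the repressor Maf1. Each of the 35 had 1 probe set, and all 35 passed the filter on low values that left 5350 genes for testing. The cells were transformants of Saccharomyces cerevisiae strain BY4741. In the PI3K group they carried p110α-CAAX, a mammalian phosphoinositide 3-kinase catalytic subunit joined to a membrane-targeting motif. In the KD group they carried the same construct with the kinase-dead substitution K802R. Both constructs were driven by a galactose-inducible promoter, and both groups were grown in raffinose medium and given 2% galactose for 4 h at 30 °C. Each group had 3 biological replicates with 1 Affymetrix array each, so both groups share the induction, the promoter and the foreign protein and differ in kinase activity.

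Pol I transcribes a single kind of gene, the ribosomal DNA repeat that encodes the large ribosomal RNAs. Pol III makes transfer RNAs, 5S ribosomal RNA and other small RNAs. In yeast these enzymes account for most of the RNA made in growing cells, and their output falls when nutrients run out or stress sets in. Many of their genes carry a promoter motif named PAC, after polymerases A and C, the older names of Pol I and Pol III, and are expressed along with the genes of ribosome assembly. The arrays measured the messenger RNAs of the subunits and factors, and neither the RNA that Pol I and Pol III make nor the activity of these enzymes. The comparison of PI3K with KD asks whether those messenger RNAs respond to the lipid kinase activity.

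Values are log2 summaries of probe sets, so a difference of 1 is a doubling, and levels were compared between arrays but not between genes. URA3 and MET17, which are deleted in BY4741, read 3.11 to 3.51 and 3.57 to 4.03, near the lowest value of 2.49. GAL1, the galactokinase gene, read 14.05 to 14.17 on the 6 arrays. LEU2 and HIS3 read 12.14 to 12.65 and 10.96 to 11.23, although the strain carries deletions at both loci. In this MATa strain STE2, the receptor gene of a cells, read 10.71 to 11.84. STE3, the receptor gene of alpha cells, read 7.85, 7.56 and 8.09 in PI3K, against 6.80, 6.88 and 7.26 in KD. The STE3 groups did not overlap (log2 fold change 0.85), as was so for 10.2% of all genes in that direction. The other alpha-cell genes checked did not follow STE3. MF(ALPHA)1, MF(ALPHA)2 and SAG1 differed by -0.40, -0.10 and -0.09, with overlapping groups. Among a-cell genes STE2, STE6, BAR1, MFA1 and MFA2 differed by 0.02, -0.31, -0.04, 0.13 and -0.39. Of these only the MFA2 groups were apart, lower in PI3K, as for 10.5% of all genes. The transgene itself was not analysed here. Apart from the groups, the arrays fell on 2 sides: the first principal component of the values with group means removed held 70.4% of the variance. It placed PI3K 1, PI3K 3 and KD 3 together (side A) against PI3K 2, KD 1 and KD 2 (side B). Because the sides were found from the values and each holds an unreplicated array of 1 group, differences within a side are given without a test.

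Most of the machinery read slightly lower in PI3K than in KD, by amounts that did not pass the test for any gene. The log2 fold change, PI3K minus KD, was negative for 28 of the 35 members (80.0%), against 50.3% of all genes tested, and its median was -0.17, against -0.00180 over all genes. None of the 35 passed an adjusted p of 0.05 in limma, a linear model with moderated variances, where 0.243% of all genes did. The smallest adjusted p among them was 0.223. With array weights 24 of the 35 passed, as did 52.5% of all genes, in a fit that stopped before it converged. At an unadjusted p under 0.05, 3 members were lower (8.57%, against 6.58% of all genes) and 1 was higher (2.86%, against 7.94%). The PI3K values lay wholly below the KD values for 5 members, or 14.3%, against 10.5% of all genes, and wholly above them for 1 (2.86%, against 10.2%). On PI3K 1, 2 and 3, 29, 20 and 27 of the 35 members were below their KD means, so PI3K 2 contributed least to the lower values. More PI3K than KD arrays lay on side A, so part of any difference between sides enters the fold changes. With the side as a covariate, 27 of the 35 members were negative, with a median of -0.10, against 0.0141 over all genes. The shares of genes called or separated in the lower direction were near those of the whole array. Those in the higher direction were below it but rest on 1 member, RRN10, too few to read as a result. The share of negative differences was larger. A set test was not run, and the members are not independent of one another, since the values of many moved together from array to array. As measurements of whole cultures, the values cannot tell a lower level in every cell from a change in a share of the cells.

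**Figure D1:**
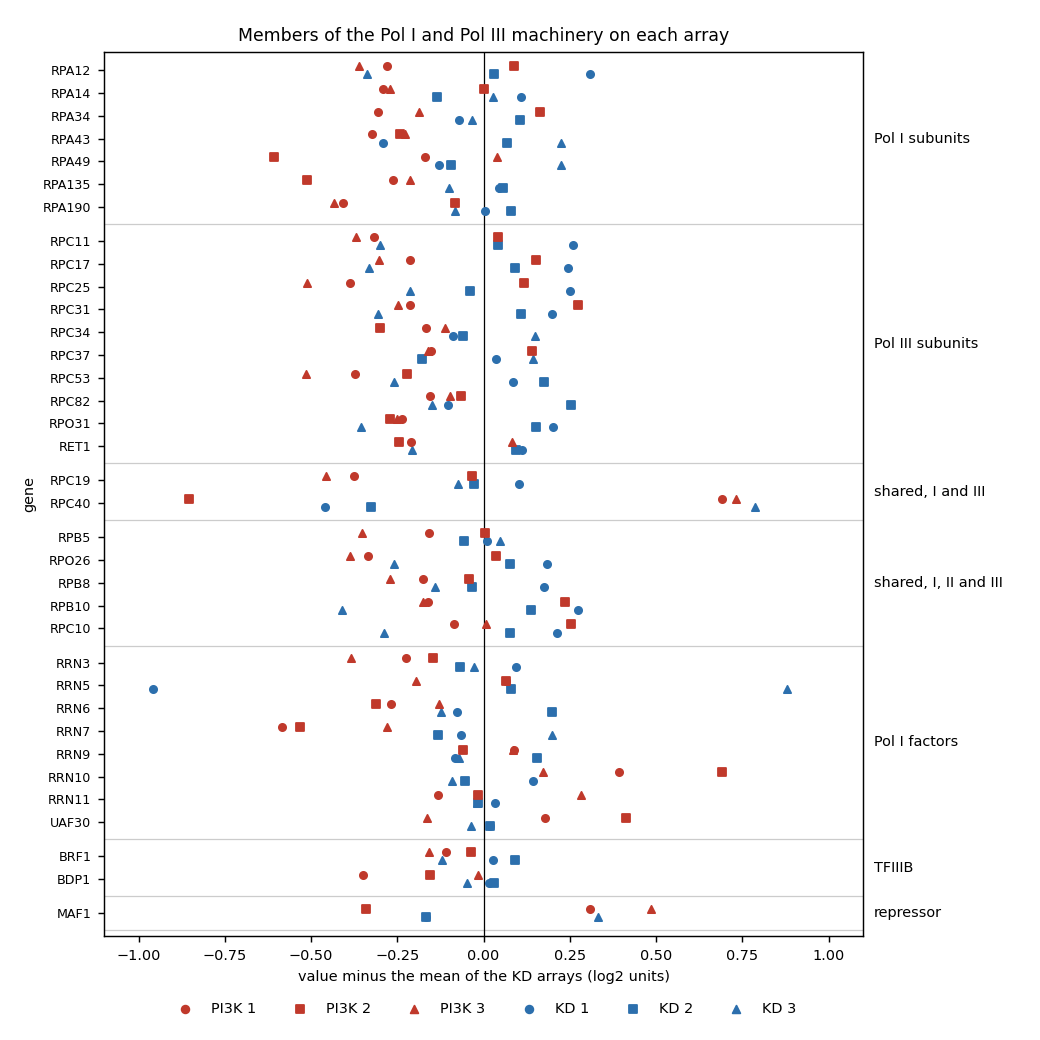
Each row is a gene and each point an array, placed by its log2 value minus the mean of the 3 KD arrays for that gene. PI3K arrays are red and drawn above the blue KD arrays, with circles, squares and triangles for replicates 1, 2 and 3. Most subunit genes lie within 0.5 of 0, and RPC40 and RRN5 are the members that spread most.

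The Pol I-specific subunits had a median of -0.25, and all 7 had negative differences, from -0.33 to -0.11. This median lay below those of the Pol III-specific and shared subunits given further on, but not in every setting: without KD 3 it was -0.17, against -0.26 and -0.23, and with the gene length trend removed -0.208, against -0.215 and -0.18. RPA135, which encodes the second-largest subunit and forms the active site cleft with the largest, read 11.74, 11.49 and 11.78 on PI3K arrays 1, 2 and 3, against 12.04, 12.05 and 11.90 on KD arrays 1, 2 and 3. The groups did not overlap, and the difference was 0.796-fold (log2 fold change -0.33, SE 0.12, adjusted p = 0.299). RPA190, the largest subunit gene, read 11.38, 11.70 and 11.35 in PI3K, against 11.79, 11.87 and 11.70 in KD. Here PI3K 2 and KD 3 met, and the log2 fold change was -0.31 (SE 0.13, adjusted p = 0.357).

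Other Pol I subunits varied more between replicates. RPA43, a subunit of the stalk that binds Rrn3, read 9.96, 10.04 and 10.05 in PI3K, against 9.99, 10.35 and 10.51 in KD, so KD 1 lay among the PI3K values. RPA43 neighbours RPA190 in the reference gene table, and its log2 fold change was -0.26. RPA14, the other stalk subunit, had a difference of -0.19. RPA49 and RPA34 encode a dimer related to TFIIF that aids initiation and elongation. RPA49 read 10.59, 10.16 and 10.80 in PI3K, against 10.64, 10.67 and 10.99 in KD, with the lowest value on PI3K 2. RPA34 read 11.72, 12.19 and 11.84 in PI3K, against 11.96, 12.13 and 11.99 in KD, and PI3K 2 was there the highest of all 6. RPA12, needed for RNA cleavage and termination, had a difference of -0.18 with values between 11.19 and 11.64 in PI3K, against 11.21 to 11.86 in KD. The 95% intervals of the 7 genes reached down to -0.70 for RPA49 and up to 0.29 for RPA12, and only that of RPA135 left out 0.

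The median of the Pol I-specific subunits, taken relative to each gene's KD mean, was -0.29, -0.08 and -0.23 on PI3K 1, 2 and 3, against 0.00447, 0.06 and -0.03 on KD 1, 2 and 3. All 3 PI3K medians were below all 3 KD medians. This order was not particular to the class. The Pol I initiation factors, which did not share a direction, had it too, by little. Their medians were -0.0332, -0.0372 and -0.15 on PI3K 1, 2 and 3, against -0.0234, 0.00172 and -0.0320 on KD 1, 2 and 3. The lists of ribosomal DNA chromatin and Pol III transcript handling, given further on, also had it. On PI3K 1, 7 of the 7 genes were below their KD means, on PI3K 2, 4 were, and on PI3K 3, 6 were. Within side A the class had a median difference of -0.29 with 6 of 7 genes lower in PI3K, and within side B -0.13 with 5 of 7 lower.

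**Figure D2:**
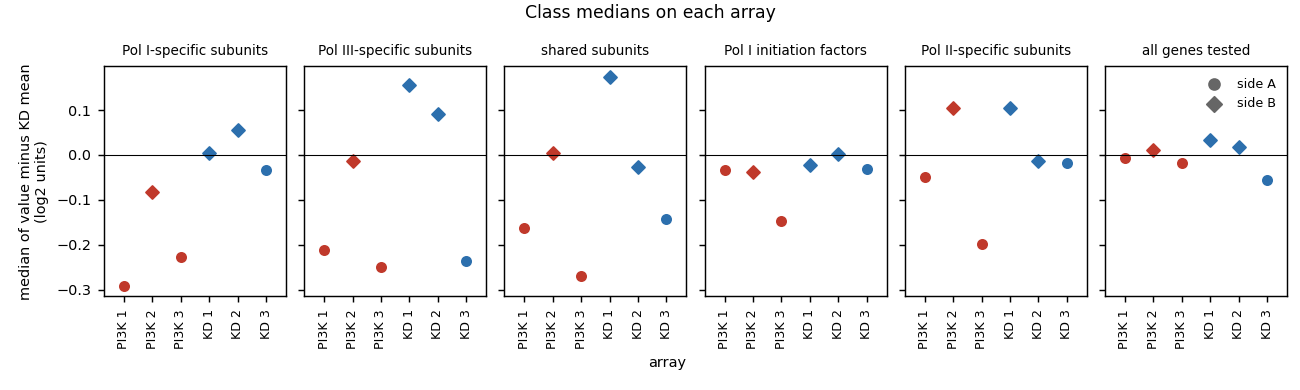
Each panel is a class of genes and each point the median over that class of the log2 value minus the KD mean of each gene, on 1 array. PI3K arrays are red and KD arrays blue, with circles for side A and diamonds for side B. The Pol I-specific medians of the PI3K arrays, -0.29 to -0.08, lie below those of the KD arrays, as do, by little, those of the Pol I initiation factors. The Pol III-specific median of KD 3, -0.24, lies among the PI3K values.

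All 10 Pol III-specific subunits had negative differences as well, from -0.37 to -0.06, with a median of -0.16. That median was -0.26 without KD 3 and -0.09 with the side as a covariate. With array weights it was -0.32, in the fit that stopped before it converged. That fit gave most weight to PI3K 1 (5.02) and KD 2 (5.75), which lie on different sides. Here the class followed the array sides more than the groups. Relative to the KD means, the class stood at a median of -0.21, -0.01 and -0.25 on PI3K 1, 2 and 3, against 0.16, 0.09 and -0.24 on KD 1, 2 and 3. KD 3 thus resembled PI3K 1 and PI3K 3, and PI3K 2 stood near the KD mean, with 5 of 10 genes below it. Within side A the median difference was -0.01, with 5 of 10 genes lower in PI3K, and within side B it was -0.12, with 7 of 10 lower. Only 3 of the 10 genes were lower within both sides.

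RPC53, whose product forms with Rpc37 the Pol III counterpart of the TFIIF-like dimer and is phosphorylated when Pol III is repressed, had the largest difference of the class. It read 9.71, 9.86 and 9.56 in PI3K, against 10.16, 10.25 and 9.82 in KD. KD 3 lay just below PI3K 2, and the log2 fold change was -0.37 (SE 0.15, adjusted p = 0.334), or 0.774-fold. RPC37 itself differed by -0.06, with values of 10.15, 10.44 and 10.14 in PI3K, against 10.34, 10.12 and 10.44 in KD. The partners in this dimer were therefore not equally far apart between groups, but the 95% interval of RPC37, -0.39 to 0.28, includes the RPC53 estimate.

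RPO31, the largest Pol III subunit gene, read 10.66, 10.63 and 10.65 in PI3K, against 11.10, 11.05 and 10.54 in KD. The PI3K arrays were nearly identical, and KD 3 lay below them while KD 1 and KD 2 lay above. Its log2 fold change was -0.25 over all arrays, with 0.11 between the arrays of side A and -0.45 between those of side B. RET1, the gene of the second-largest subunit, read 10.51, 10.48 and 10.81 in PI3K, against 10.84, 10.82 and 10.52 in KD. KD 3 again stood apart from KD 1 and KD 2, and PI3K 3 reached their level, so the difference was -0.13.

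The heterotrimer that melts the promoter and contacts TFIIIB is encoded by RPC82, RPC34 and RPC31. RPC34 was the member of the class whose groups did not overlap, with 9.27, 9.14 and 9.33 in PI3K, against 9.35, 9.38 and 9.59 in KD. The gap between the groups was small, and the log2 fold change was -0.19 (SE 0.12, adjusted p = 0.541). RPC82 and RPC31 differed by -0.11 and -0.06. The stalk genes RPC25 and RPC17 differed by -0.26 and -0.12, and RPC11, which encodes the RNA cleavage and termination subunit, by -0.21. All 4 of RPC11, RPC17, RPC25 and RPC31 were lower on PI3K 1, PI3K 3 and KD 3 than on the other 3 arrays.

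Pol I and Pol III are built on a common plan, with subunits of one matching subunits of the other. The log2 fold changes of the largest subunits RPA190 and RPO31 were -0.31 and -0.25. Those of the second-largest, RPA135 and RET1, were -0.33 and -0.13. In the stalk, RPA43 and RPC25 both stood at -0.26, and RPA14 and RPC17 at -0.19 and -0.12. The cleavage subunits RPA12 and RPC11 were at -0.18 and -0.21. In the TFIIF-like dimers, RPA49 and RPA34 were at -0.25 and -0.11, and RPC53 and RPC37 at -0.37 and -0.06. Each of these 14 genes had a negative difference, as had all Pol I-specific and Pol III-specific subunits. The Pol II counterpart of the largest subunits, RPO21, was lower too, at -0.41, as were 5 of the 7 Pol II-specific subunits in all. The differences within pairs were not tested.

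**Figure D3:**
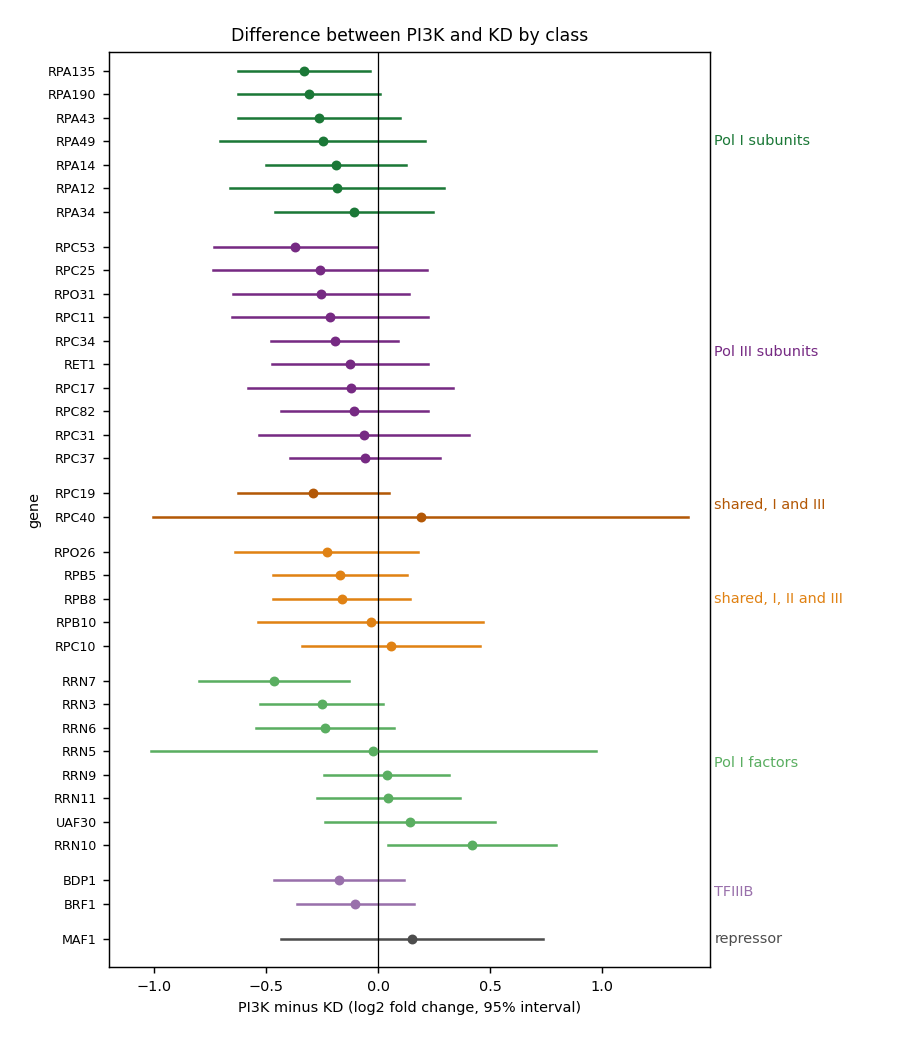
Each row is a gene, with its log2 fold change, PI3K minus KD, as a point and the 95% interval from limma as a line, coloured by class. All Pol I-specific and Pol III-specific points lie left of 0, the intervals of RPA135 and RPC53 end just short of it, and those of RPC40 and RRN5 are the widest.

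Of the 7 shared subunits 5 had negative differences, with a median of -0.16. Without KD 1 and without PI3K 3 this median was -0.08 in each case, and with the side as a covariate -0.10. Rpc19 and Rpc40 form the assembly platform common to Pol I and Pol III. RPC19 read 11.88, 12.22 and 11.80 in PI3K, against 12.35, 12.22 and 12.18 in KD, so PI3K 2 lay within the KD range, and its log2 fold change was -0.29 (SE 0.14, adjusted p = 0.427). RPC40 parted by array side and not by group. It read 11.50, 9.96 and 11.54 on PI3K 1, 2 and 3, against 10.35, 10.49 and 11.60 on KD 1, 2 and 3. The 3 arrays of side A were all at or above 11.50 and the 3 of side B at or below 10.49, so the groups overlapped fully. Its log2 fold change was 0.19 with an SE of 0.50 and a 95% interval from -1.01 to 1.38. By the size of the difference between the sides, averaged over the groups, it ranked 18 of 5350 genes, at 1.37. PI3K minus KD was -0.08 on side A and -0.46 on side B.

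The subunits found in all of Pol I, Pol II and Pol III are encoded by RPB5, RPO26, RPB8, RPB10 and RPC10. RPO26, the Rpb6 gene, read 12.20, 12.58 and 12.15 in PI3K, against 12.72, 12.62 and 12.28 in KD, a log2 fold change of -0.23. RPB5 and RPB8 differed by -0.17 and -0.16, and their groups overlapped. RPB10 and RPC10, the zinc-binding small subunits, had differences of -0.03 and 0.06, and in both genes KD 3 was the lowest array. The subunits found only in Pol II, set beside these, stood at a median of -0.13, and 5 of 7 were lower in PI3K. Their range, from -0.41 to 0.14, overlapped those of the Pol I and Pol III classes. RPO21, the largest Pol II subunit gene and the first of them by p, was at -0.41 (SE 0.22, adjusted p = 0.459), and RPB11 at -0.22.

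The Pol I initiation factors did not share a direction: 4 of 8 were lower in PI3K, and the median was 0.00866. They held, however, both the lowest and the highest log2 fold change of the 35 members. RRN7, a subunit of the core factor that resembles TFIIB, read 7.62, 7.67 and 7.93 in PI3K, against 8.14, 8.07 and 8.40 in KD. The groups did not overlap, and the difference was 0.724-fold (log2 fold change -0.47, SE 0.14, 95% interval -0.80 to -0.13, adjusted p = 0.223). The side A arrays differed by -0.63 and the side B arrays by -0.43.

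The other core factor genes differed less. RRN6 read 8.51, 8.47 and 8.65 in PI3K, against 8.70, 8.98 and 8.66 in KD, with the groups apart by little (log2 fold change -0.24, adjusted p = 0.478). RRN11, the remaining core factor subunit, was at 0.04. RRN3 encodes the factor that makes Pol I competent to start and that ties it to the core factor. It read 9.38, 9.46 and 9.22 in PI3K, against 9.70, 9.54 and 9.58 in KD. All 3 PI3K arrays were below all 3 KD arrays, and the log2 fold change was -0.25 (SE 0.12, adjusted p = 0.388).

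The upstream activating factor binds the ribosomal DNA promoter and recruits the core factor. RRN10, one of its subunits, read 8.90, 9.20 and 8.68 in PI3K, against 8.65, 8.46 and 8.42 in KD. It was the member with the groups apart in the opposite direction, higher in PI3K on each array, although PI3K 3 exceeded KD 1 by only a little. The difference was 1.34-fold (log2 fold change 0.42, SE 0.16, adjusted p = 0.299), 0.37 on side A and 0.64 on side B. UAF30, another subunit, had a difference of 0.14 and read 8.24, 8.48 and 7.90 in PI3K, against 8.08, 8.08 and 8.03 in KD. RRN9 was at 0.04. RRN5 read 7.51, 7.51 and 7.25 in PI3K, against 6.48, 7.52 and 8.32 in KD. The KD arrays spanned more than the PI3K arrays, and a log2 fold change of -0.02 with an SE of 0.42 leaves its direction undetermined.

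**Figure D4:**
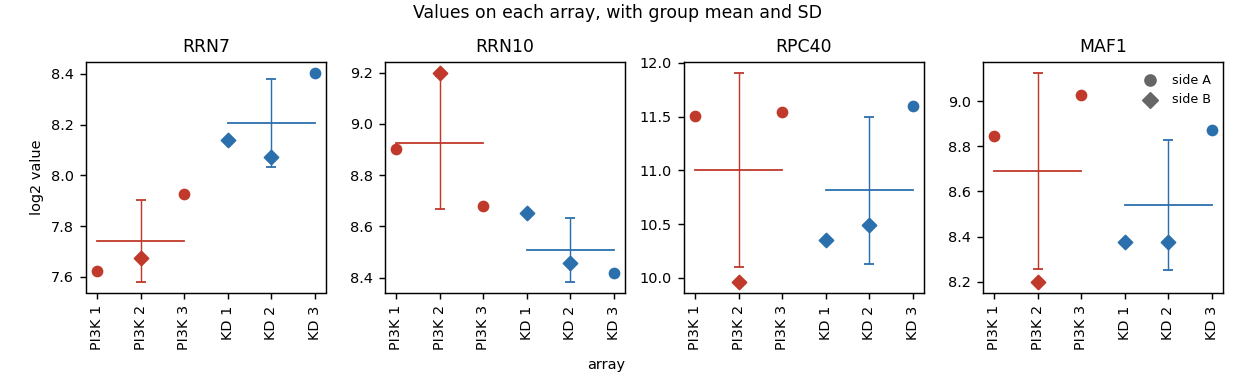
Log2 values of RRN7, RRN10, RPC40 and MAF1 on each array, with PI3K in red and KD in blue, circles for side A and diamonds for side B. Horizontal lines are group means and vertical bars SDs (n = 3 each). RRN7 and RRN10 separate by group, and RPC40 and MAF1 by side.

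TFIIIB, which places Pol III at its genes, showed small differences. BRF1 had a log2 fold change of -0.10 (SE 0.11) and BDP1 of -0.17 (SE 0.12), and the groups overlapped for both. MAF1 encodes the repressor that binds Pol III under stress and is controlled mainly by phosphorylation, which arrays do not measure. It read 8.85, 8.20 and 9.03 in PI3K, against 8.37, 8.37 and 8.87 in KD. PI3K 1, PI3K 3 and KD 3 were the high arrays, as for RPC40, and the log2 fold change of 0.15 had a 95% interval from -0.44 to 0.74. The difference was 0.07 on side A and -0.18 on side B.

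Genes with which the machinery works were read from 4 further lists, and none of their 30 genes passed. With the side as a covariate in limma 1 of the 30 did, FOB1, described next, where 3.46% of all genes did. Its adjusted p was 0.0491 in that fit, which gives too small p-values because the side came from these arrays. In the list of ribosomal DNA chromatin proteins 5 of 6 genes were lower in PI3K, against 50.3% of all genes, with a median of -0.26. FOB1, which blocks replication forks in the ribosomal DNA, read 8.34, 8.22 and 8.51 in PI3K, against 8.66, 8.61 and 9.03 in KD, and SIR2, the silencing deacetylase, 9.63, 9.63 and 9.56, against 10.02, 9.83 and 9.83. These were the first 2 of the list by p, and their groups were apart, with log2 fold changes of -0.41 (adjusted p = 0.296) and -0.29 (adjusted p = 0.299). In that list 3 of 6 genes were apart and lower (50%, against 10.5% of all genes) and 0 apart and higher. All 5 genes of the list of Pol III transcript handling were lower, with a median of -0.30. LOS1, the exporter of transfer RNAs, led them with 9.87, 10.08 and 9.72 in PI3K, against 10.41, 10.54 and 10.23 in KD (log2 fold change -0.51, adjusted p = 0.208). TRL1, the transfer RNA ligase gene, was at -0.35, with overlapping groups.

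The list of regulators held genes of either direction, 7 of 11 lower, with a median of -0.01. DOT6, a repressor that binds the PAC motif, read 10.65, 10.83 and 10.53 in PI3K, against 11.16, 11.15 and 11.11 in KD. Its groups were apart and its log2 fold change was -0.47 (SE 0.12, adjusted p = 0.176). Among the 11 regulators 2 were apart and lower (18.2%, against 10.5% of all genes) and 1 apart and higher (9.09%, against 10.2%). SCH9, the kinase that conveys TORC1 signals to Maf1 and to Dot6, read 9.77, 9.38 and 9.59 in PI3K, against 9.82, 10.05 and 10.15 in KD, and differed by -0.43 on the log2 scale (adjusted p = 0.269). In the list of TFIIIC subunits, TFIIIA and the TATA-binding protein, the assembly factors of Pol III genes, 4 of 8 were lower and the median was -0.02. TFC8, a TFIIIC subunit gene, was at -0.27, and PZF1, which encodes TFIIIA, at 0.16.

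The members also differed between the array sides, and by amounts that went with gene length. The median size of the difference between sides was 0.23 over the 35 members and 0.23 over all genes. All 15 members with a gene length under 800 bases were lower on side A than on side B, with a median difference of -0.36, as were 86.6% of all genes that short, with a median of -0.28. Of the 20 longer members 10 were lower on side A, with a median of -0.00790, against 47.9% of longer genes. RPB10 (213 bases) was at -0.51 and RPC31 (756 bases) at -0.48, while MAF1 (1268 bases), RRN5 (1092 bases), RPA49 (1248 bases) and RPC40 (1008 bases) were at 0.62, 0.59, 0.44 and 1.37. At this cut of 800 bases the difference between PI3K and KD did not part in this way: 12 of 15 short members were lower in PI3K with a median of -0.16, and 16 of 20 long ones with -0.18. Single members did move when the gene length trend was removed. RPA43 (981 bases) went from -0.26 to -0.47 and RPC34 (954 bases) from -0.19 to -0.40. The much longer RPA190 (4995 bases) went from -0.31 to -0.17 and RET1 (3450 bases) from -0.13 to -0.00545. With the side as a covariate 0 of the 35 members passed in limma, where 3.46% of all genes did, and such p-values are too small since the side was found from the same values.

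**Figure D5:**
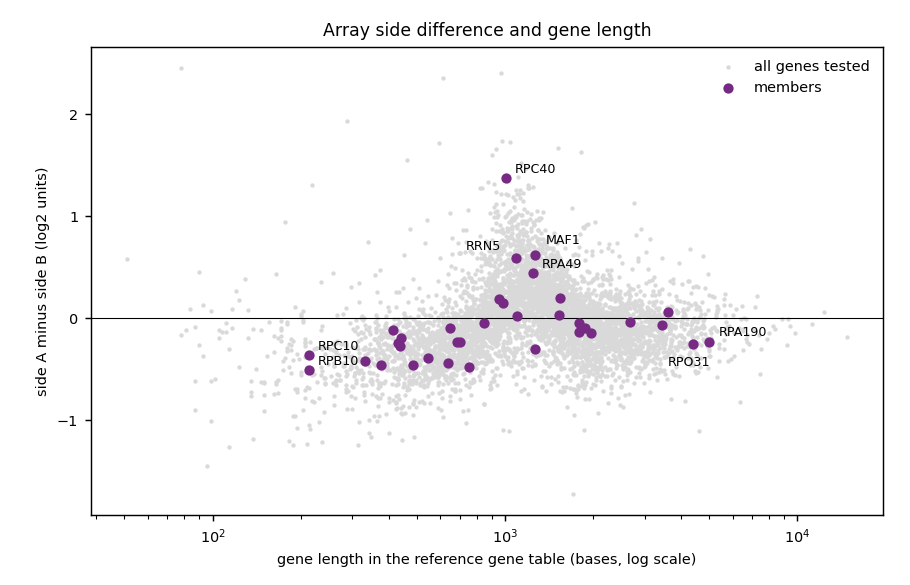
Each point is a gene, with its length in bases on a log scale and the difference between side A and side B in log2 units, averaged over PI3K and KD. Grey points are all 5350 genes tested and purple points the 35 members. Members under 800 bases all lie below 0, and RPC40, at 1.37, lies at the upper edge of genes of its length.

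Across the sides, 16 of the 35 members (45.7%) were lower in PI3K within both, against 28.6% of all genes. Among the Pol I-specific subunits these were 4 of 7, among the Pol III-specific 3 of 10, among the shared 4 of 7 and among the Pol I factors 3 of 8. RPA135, RPA190, RPC53, RPC34, RPC19, RRN3, RRN6 and RRN7 were among the 16, and RRN10 was higher within both. With RPC40 set aside, the 95% intervals of the subunit genes were bounded by -0.74 for RPC25 and 0.47 for RPB10. At 3 arrays a group, differences of the size seen here, mostly under 0.4, were thus not resolved gene by gene.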

How the data were processed

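Biotin-labelled total RNA of each of 6 cultures went onto an Affymetrix array of its own, per the labels' protocols. The values deposited by the authors cover 5716 probe sets on 6 arrays and were made with GCRMA (background correction, normalisation and summary) per the submitters' processing notes, which give no version. These deposited values are taken as log2, a base that neither labels nor table states, from their range of 2.49 to 14.70. The number of arrays limits the precision.

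Probe sets were named through the platform annotation, with symbols updated by gene identifier (5498 had 1 gene, 0 several and 218 none). The probe set with the highest mean stood for a gene, and 5350 of 5449 genes were tested, those that reached a log2 value of 4 on 3 arrays or more. Groups came from the titles. The contrast of PI3K minus KD was fitted with limma 3.58.1 under R 4.3.3, using lmFit and eBayes with a two-sided test and no block (4 residual and 2.97 prior degrees of freedom), with Benjamini-Hochberg adjustment over 5350 genes at 0.05. The test was run on simulated data first. The members and lists were chosen with earlier results of these data known, so lists are given by counts and medians. All members, the genes of the check lists and the first 2 by p of each further list could be named. Arrays of the same replicate number deviated together in 2 of 3 pairs (residual correlations of -0.49, 0.48 and 0.39), so numbers were not taken as pairs. Other settings tried were array weights, the array side, no filter, a filter at 6, quantile normalisation, averaged probe sets, median-centring, a block for the replicate number, eBayes with trend and robust options, removal of a loess trend of gene length (span 0.5) and leaving out each array. Promoter and protein sequences were not used here, so the motif search and the comparison of proteins that had been planned were not run. Gene lengths are those of the R64 reference gene table. Plots were made in Python 3.11.15 (matplotlib 3.10.9).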

Additional observations from a re-analysis of the deposited data

How the results depend on the processing

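No member passed under 15 of the 16 other settings tested in limma, and in these 16 the count of negative members lay between 25 and 30. On side A alone 22 members were negative, and on side B alone 24. The exception was array weights, where 24 members and 2808 genes passed and the median was -0.29 over all members and -0.0504 over the Pol I factors. That fit stopped before it converged, with weights from 0.154 for KD 3 to 5.75 for KD 2, and its calls were not used. Over all genes 40 passed with a replicate block, under which 0 members did, 185 with the side as covariate and 25 with the gene length trend removed, against 13. Leaving out single arrays gave 0 to 6 calls: 2 when PI3K 1 was dropped, 1 for PI3K 2, 2 for PI3K 3, 1 for KD 1, 0 for KD 2 and 6 for KD 3, with 0 members among them. The numbers were not taken as pairs: 2 of 6 arrays correlated best with their own number across groups. The titles do not say whether cultures were paired. These correlations cannot settle it, since the component behind the sides held 70.4% of the variance. The Pol I factor median was -0.0937 with the side as a covariate, -0.13 with the length trend removed, -0.0596 on side B and -0.10 to 0.0281 with an array left out. Leaving out an array gave medians of -0.22 to -0.11 over all members, -0.31 to -0.17 for Pol I-specific, -0.26 to -0.11 for Pol III-specific and -0.23 to -0.08 for shared subunits. Over all members the median was -0.0814 within side A, and the Pol I-specific median was -0.13 within side B. Signs of small differences turned. With the side as a covariate MAF1 was at -0.0553, RPB10 at 0.14, RPC17 at 0.0296, RPC31 at 0.0983 and RPC40 at -0.27. With array weights RPC10 was at -0.14, RPC37 at 0.00170, RRN11 at -0.0661, RRN5 at 0.0818 and RRN9 at -0.0347. With the length trend removed RPC40 was at -0.0124 and RRN9 at -0.14. With an array left out, MAF1 ranged from -0.0170 to 0.40, RPB10 from -0.24 to 0.10, RPC10 from -0.0868 to 0.16, RPC31 from -0.23 to 0.0370, RPC37 from -0.16 to 0.0125, RPC40 from -0.0816 to 0.71, RPC82 from -0.18 to 0.0211, RRN11 from -0.0740 to 0.13, RRN5 from -0.50 to 0.42 and RRN9 from -0.00296 to 0.12. The causes of these moves were not tested.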
